A study of Papio anubis and Macaca mulatta with 6 samples.

Results

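Leydig cells are the steroid-producing cells of the testis interstitium, the tissue between the tubules that hold the Sertoli and germ cells. They take up or make cholesterol, move it into the mitochondria with STAR, cut its side chain with CYP11A1 and turn the product into androgens with CYP17A1, HSD3B and HSD17B enzymes under the control of luteinizing hormone and its receptor LHCGR. They also secrete INSL3, a relaxin-like peptide hormone that acts in testicular descent and is widely used as a marker of these cells. In the immature testis most of the interstitium is collagen-rich stroma, and mature Leydig cells are few.

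INSL3-expressing cells were examined in testis cells of 2 olive baboons and 2 rhesus macaques. A cell was defined by its INSL3 transcripts: a barcode with at least 1000 unique molecular identifiers (UMIs, 1 per captured transcript), at least 10 UMIs of INSL3, and INSL3 at 0.5% or more of its UMIs. Of 44341 barcodes with at least 1000 UMIs, 580 met this rule (1.31%). INSL3 chose these barcodes, so its level in them is a description and no result. All animals were immature, and the tissue was taken at necropsy after euthanasia for another purpose. The paper describes no treatment of them. The animals differed in age, but the sources disagree on which species the ages belong to, so no age is used here. Cells of baboon 1 were run as 2 libraries (1A and 1B), as were those of rhesus 2 (2A and 2B), whereas the other 2 animals had 1 library each, and 5000 cells were aimed at per library. The droplet kit of 10x Genomics, which reads the 3′ end of transcripts, was of version 3 for baboon 2 and of version 2 for the rest. After a short collagenase digestion the tissue was washed to remove interstitial cells before trypsin was added, so the number of Leydig cells recovered is no measure of their number in the testis. Each species was examined alone, because the gene annotations differ.

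The rule found 7 cells in baboon 1 (4 from 1A, 3 from 1B) and 19 in baboon 2, against 410 in rhesus 1 and 144 in rhesus 2 (68 from 2A, 76 from 2B). As a share of barcodes this was 0.0495% in baboon 1 (exact 95% interval 0.0199 to 0.102), 0.252% in baboon 2 (0.152 to 0.393), 3.94% in rhesus 1 (3.58 to 4.33) and 1.18% in rhesus 2 (0.993 to 1.38). Both rhesus shares lay above both baboon shares, and the 4 intervals, which cover counting error only, did not overlap. Counted against the interstitial barcodes alone (INSL3 cells plus barcodes rich in DCN, COL1A1, COL1A2 and COL3A1), the shares were 0.949% and 0.993% in the baboons and 10.1% and 4.63% in the rhesus monkeys. Species, animal, age, annotation and, for baboon 2, kit version cannot be told apart with 2 animals each.

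The median INSL3 cell held 38.0 INSL3 UMIs in baboon 1, 46.0 in baboon 2, 78.0 in rhesus 1 and 101 in rhesus 2, or 1.33%, 1.04%, 3.22% and 2.38% of all its UMIs. The highest cell, in library 2B, held 1084. The rule itself favors barcodes with many UMIs, since 10 INSL3 UMIs are a larger share of a small barcode, and INSL3 adds to the total. Median UMI counts, given only as a description, were 3556, 4327, 2672 and 4997 UMIs in INSL3 cells in the same order, and 1969, 2968, 1626 and 1613 in all other barcodes. These cells held 88.1%, 75.9%, 94.6% and 94.5% of the INSL3 UMIs found in barcodes of at least 1000 UMIs, a sum that leaves out the smaller barcodes. Among the other barcodes, an INSL3 UMI was seen in 0.198%, 0.930%, 18.9% and 8.17%. Barcodes with very few UMIs, which hold free RNA, had INSL3 at 37.3 to 62.2 UMIs in every 1000000 (CPM) in the baboon libraries and at 991, 430 and 570 CPM in rhesus 1, 2A and 2B. STAR stood at 98.2, 105 and 99.3 CPM in those rhesus droplets, close to its level in the other barcodes.

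**Figure D1:**
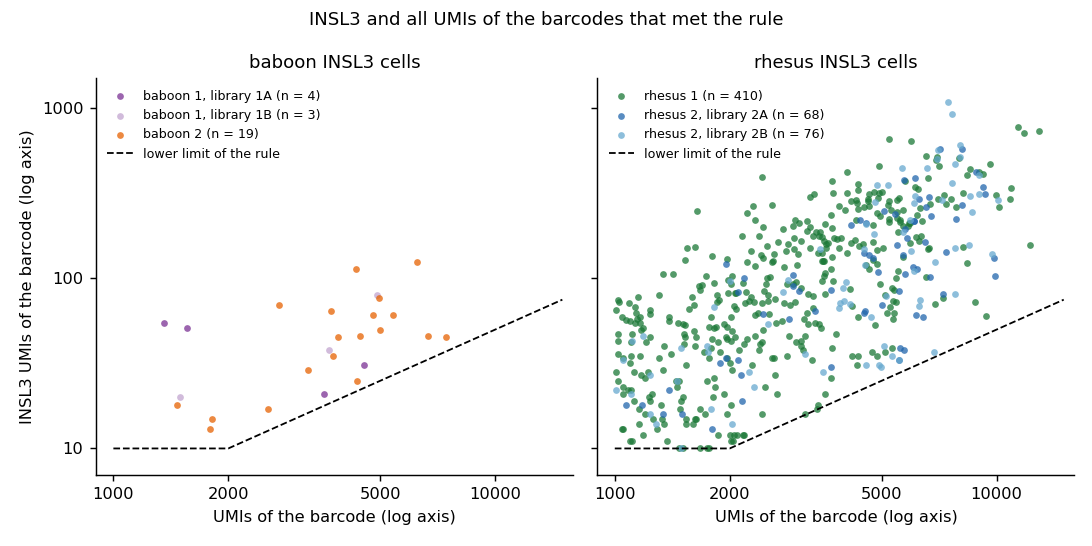
Each point is 1 INSL3 cell, with all its UMIs on the x axis and its INSL3 UMIs on the y axis (both log axes), in the baboons (26 cells, left) and the rhesus monkeys (554 cells, right), colored by library. The dashed line is the lower limit of the rule, and the rhesus cells reach up to 1084 INSL3 UMIs while the baboon cells reach 125.

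At the edge of the rule, 18 rhesus cells with 10 to 12 INSL3 UMIs had CYP17A1 at 196 CPM, STC1 at 457 CPM and AMH at 2024 CPM over all of them. The 14 barcodes left outside with 7 to 9 INSL3 UMIs had the same genes at 180, 480 and 2100 CPM. STAR had 1 UMI (32.6 CPM) inside and 3 UMIs (180 CPM) outside this limit, and COL1A1 stood at 555 and 360 CPM. In these 18 cells STAR was thus not above the other barcodes (84.4 and 70.6 CPM in rhesus 1 and 2). AMH, the anti-Müllerian hormone of Sertoli cells, was thus high on both sides of that limit. The barcodes with very few UMIs held AMH at 1896, 1795 and 1890 CPM in rhesus 1, 2A and 2B, and the part of free RNA was not tested. Along the other limit, 30 rhesus cells with INSL3 at 0.5 to 0.7% held STAR at 373 CPM, and 18 barcodes left outside at 0.3 to 0.5% held it at 289 CPM. CYP17A1 stood at 167 CPM in the former and had 0 UMIs in the latter. In the baboons 6 cells lay at 0.5 to 0.7%, with STAR at 1245 CPM, and 3 barcodes left outside at 0.3 to 0.5% had STAR at 1451 CPM.

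The label was checked against the markers of Leydig cells and of other testis cells. The Leydig markers STAR, CYP11A1 and CYP17A1 lay above the other barcodes of the same animal in both rhesus monkeys, and STAR did so in both baboons, with the values given below. The lists of Leydig secreted proteins and of Leydig and stromal transcription factors went mostly the other way in the rhesus monkeys. In both baboons their summed levels lay above the other barcodes. The share of cells with CYP11A1 at equal depth, also given below, did not set rhesus 1 apart from barcodes with Sertoli genes or from all other barcodes. It did from collagen-rich barcodes. The collagen-rich stroma list summed to 2599 and 1453 CPM in the rhesus INSL3 cells, against 7985 and 6181 CPM in the others. In the baboons it summed to 1203 and 2205 CPM, against 1057 and 2740 CPM in the others and 19824 and 19179 CPM in collagen-rich barcodes, and it was thus not lower in baboon 1. Of its 14 genes, OLFML3 and COL6A1 lay above the others in both baboons, and COL1A1, LUM and FBLN1 had 0 UMIs in the 26 baboon cells. None of the baboon cells and 21, 1 and 1 cells of rhesus 1, 2A and 2B also met the collagen rule (DCN, COL1A1, COL1A2 and COL3A1 together at 10 UMIs and 0.5% or more). AMH was seen in 52.4% of the INSL3 cells of rhesus 1 and in 29.2% of those of rhesus 2. With 1000 UMIs drawn from each barcode, the shares were 35.9% and 10.4%. At that depth all other barcodes had 63.3% and 36.8%, and collagen-rich barcodes 34.5% and 12.6%. Fewer than 2 UMIs of Sertoli, germ, endothelial and macrophage genes together were held by 204 of 410 cells in rhesus 1, 43 of 68 in 2A and 52 of 76 in 2B, and by 3 of 4, 1 of 3 and 11 of 19 cells in 1A, 1B and baboon 2. The part of these transcripts in the results was not tested. Over 11 Sertoli genes listed in the rhesus monkeys, the summed level was 961 CPM in INSL3 cells of rhesus 1 and 311 CPM in those of rhesus 2, against 4120 and 3877 CPM in the other barcodes. The defining Sertoli gene SOX9 was at 37.9 and 10.3 CPM, against 164 and 272 CPM in the others, and WT1 had 0 and 1 UMIs. In the baboons the Sertoli genes summed to 481 and 335 CPM, against 7471 and 7510 CPM, and the germ cell, lymphoid and erythroid lists had 0 UMIs. In baboon 1, where 1 UMI was worth 48.1 CPM, the lymphoid and erythroid lists gave little check. They stood at 12.2 and 68.1 CPM in its other barcodes. The macrophage list had 1 UMI in each baboon (48.1 and 12.9 CPM, against 30.2 and 47.2 CPM). The germ cell list stood at 9.11 CPM in rhesus 1 and at 0 UMIs in rhesus 2. The adrenal cortex, another steroid gland, expresses many of the same genes. Its markers gave no check, since in the other barcodes they had 0 UMIs in the baboons and 5 and 7 UMIs in the rhesus monkeys, and 0 in INSL3 cells. Libraries shared between 1 and 136 barcodes of 1000 UMIs in each pair of libraries, and at most 1 INSL3 cell.

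The stretch of 250 bases before the gene start is shown for INSL3, which defined the cells, for CYP17A1, which had the largest fold of the steroidogenic genes in the rhesus monkeys, and for PROK1, which was high in all 4 animals. They come from the RefSeq annotation of the rhesus genome Mmul_10. Each is written 5′ to 3′ on the strand of its gene, and capitals mark a TATAAA box. All 3 genes lie on the minus strand, at chr19:17340844-17341093 for the INSL3 window, chr9:103379293-103379542 for that of CYP17A1 and chr1:113678292-113678541 for that of PROK1.
INSL3: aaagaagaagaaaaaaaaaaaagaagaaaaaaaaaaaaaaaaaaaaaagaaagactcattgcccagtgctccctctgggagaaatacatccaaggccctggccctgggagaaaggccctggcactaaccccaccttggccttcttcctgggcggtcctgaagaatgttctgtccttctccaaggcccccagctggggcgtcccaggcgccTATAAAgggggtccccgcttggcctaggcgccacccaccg
CYP17A1: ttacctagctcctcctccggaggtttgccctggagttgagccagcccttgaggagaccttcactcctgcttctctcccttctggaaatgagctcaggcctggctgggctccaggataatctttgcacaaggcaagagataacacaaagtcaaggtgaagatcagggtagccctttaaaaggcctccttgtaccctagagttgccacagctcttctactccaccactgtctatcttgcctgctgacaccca
PROK1: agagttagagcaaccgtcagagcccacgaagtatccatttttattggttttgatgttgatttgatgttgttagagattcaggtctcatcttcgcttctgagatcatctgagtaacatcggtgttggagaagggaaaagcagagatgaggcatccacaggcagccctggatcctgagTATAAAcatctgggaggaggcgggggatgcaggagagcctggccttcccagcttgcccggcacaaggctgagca
TATAAA lies 40 to 35 bases before the start of INSL3 and 74 to 69 bases before that of PROK1. It occurred on either strand in 9.90% of 21107 rhesus windows of this length. The letters CAAGGTCA and CAAGGCCA, 2 forms of the site bound by NR5A1, the steroidogenic factor of gonads and adrenal, were found in 2.36% of all windows and in none of these 3. The shorter AGGTCA, which CAAGGTCA contains, was in 13.0% of all windows and also in none of the 3. The windows of STAR, STC1, MGARP, RHBG, PC and C7 were searched too and held no match. That of RPRM held AGGTCA on the opposite strand. Among the genes searched, TATAAA was thus found only in INSL3 and PROK1, which are among the 3 shown. These matches describe letters only, and binding was not measured.

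In the rhesus monkeys, the comparison of INSL3 cells with all other barcodes asks which genes go with INSL3 from cell to cell. UMIs were summed per animal and class with INSL3 left out, giving 1317890 and 680762 UMIs of INSL3 cells and 20338572 and 23797867 of the others. Of 12227 genes tested with edgeR (n = 2 animals, adjusted p under 0.05 by Benjamini-Hochberg), 6 were higher in INSL3 cells, or 0.0491%, and 0 were lower (0%). With unadjusted p, 1330 genes passed 0.05. When each animal was taken as a block, so that its INSL3 cells were set against its own other cells, 696 genes were higher (5.69%) and 691 lower (5.65%), with 1 residual degree of freedom among the 4 sums. The blocked values below are read against these shares.

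STC1, encoding the secreted glycoprotein hormone stanniocalcin 1, was the most abundant of the 6. In rhesus 1, 2A and 2B it stood at 1719, 1881 and 1772 CPM, against 44.2, 44.2 and 37.8 CPM in the other barcodes of each. The 3 libraries thus lay close together and far above their comparison. The log2 fold change was 5.83 ± 0.39 (SE derived from the edgeR test, n = 2 animals, edgeR adjusted p = 0.00870). MGARP, a mitochondrial protein best known from steroidogenic tissues, was at 88.0, 79.3 and 142 CPM against 3.59, 3.05 and 3.88 (5.27 ± 0.37, edgeR adjusted p = 0.00870). PROK1, a secreted prokineticin known as endocrine gland-derived VEGF, was at 34.9, 33.5 and 25.5 CPM against 1.18, 0.563 and 1.06 (5.47 ± 0.51, edgeR adjusted p = 0.0270). None of these ranges overlapped with the comparison barcodes.

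The other 3 genes were lower in level. RHBG, an ammonia transporter, stood at 25.8, 45.7 and 51.0 CPM against 0.197, 0.482 and 0.617 CPM (7.04 ± 0.61, edgeR adjusted p = 0.0270). The filter on low counts keeps a gene that is high enough in 1 class alone. RHBG, PROK1 and any other gene near 0 in the other barcodes thus needed the INSL3 cells to enter the test. PC, the mitochondrial pyruvate carboxylase, was at 36.4, 30.5 and 68.0 CPM against 2.70, 3.86 and 3.79 (4.18 ± 0.39, edgeR adjusted p = 0.0270). RPRM, a mediator of p53-dependent cell cycle arrest, was at 86.5, 140 and 173 CPM against 7.77, 11.8 and 11.2 (4.11 ± 0.40, edgeR adjusted p = 0.0289). All 6 genes kept an adjusted p under 0.05 in each of the 15 fits of this comparison, where the highest was 0.0403 for RHBG, PROK1 and PC, with at least 2000 UMIs per barcode. Without library 2B, 13 genes were higher.

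Of the genes of steroid synthesis, CYP17A1 had the largest fold. This enzyme makes the androgen precursors from pregnenolone and progesterone. It stood at 1901, 82.3 and 162 CPM in rhesus 1, 2A and 2B, against 3.00, 0.563 and 0.264 CPM in the other barcodes, or 634-fold higher in rhesus 1 and 294-fold in rhesus 2. Both animals thus had it far above their own other cells, while the INSL3 cells of the 2 animals differed from each other. That spread between animals entered the error of the fit without a block (log2 fold change 9.65 ± 1.73, edgeR adjusted p = 0.130). With the animal as a block, CYP17A1 passed (9.39 ± 0.36, edgeR adjusted p = 2.71e-34). In the other barcodes of rhesus 2 it was at 0.420 CPM, too low for the filter on low counts. CYP17A1 thus needed the INSL3 cells to enter the test, so both p-values are a description.

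STAR, which carries cholesterol into the mitochondria, was at 358, 896 and 870 CPM in rhesus 1, 2A and 2B, against 84.4, 67.7 and 73.7 CPM. It was higher in every library, with a log2 fold change of 3.42 ± 0.49 (edgeR adjusted p = 0.0904) and, with the block, of 3.33 ± 0.27 (edgeR adjusted p = 3.43e-16). CYP11A1, the side-chain cleavage enzyme, was at 34.9, 97.6 and 65.2 CPM against 12.5, 6.59 and 8.37 (2.91 ± 0.53, edgeR adjusted p = 0.133, and 1.65e-10 with the block). HSD3B1, which forms progesterone and androstenedione, was at 336, 107 and 22.7 CPM in rhesus 1, 2A and 2B, against 39.2, 22.3 and 20.2 CPM. Its level in library 2B was thus near that of the comparison barcodes, and 1 cell of library 2A held 17 UMIs of it (3.19 ± 0.80, edgeR adjusted p = 0.222, and 4.47e-14 with the block).

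**Figure D2:**
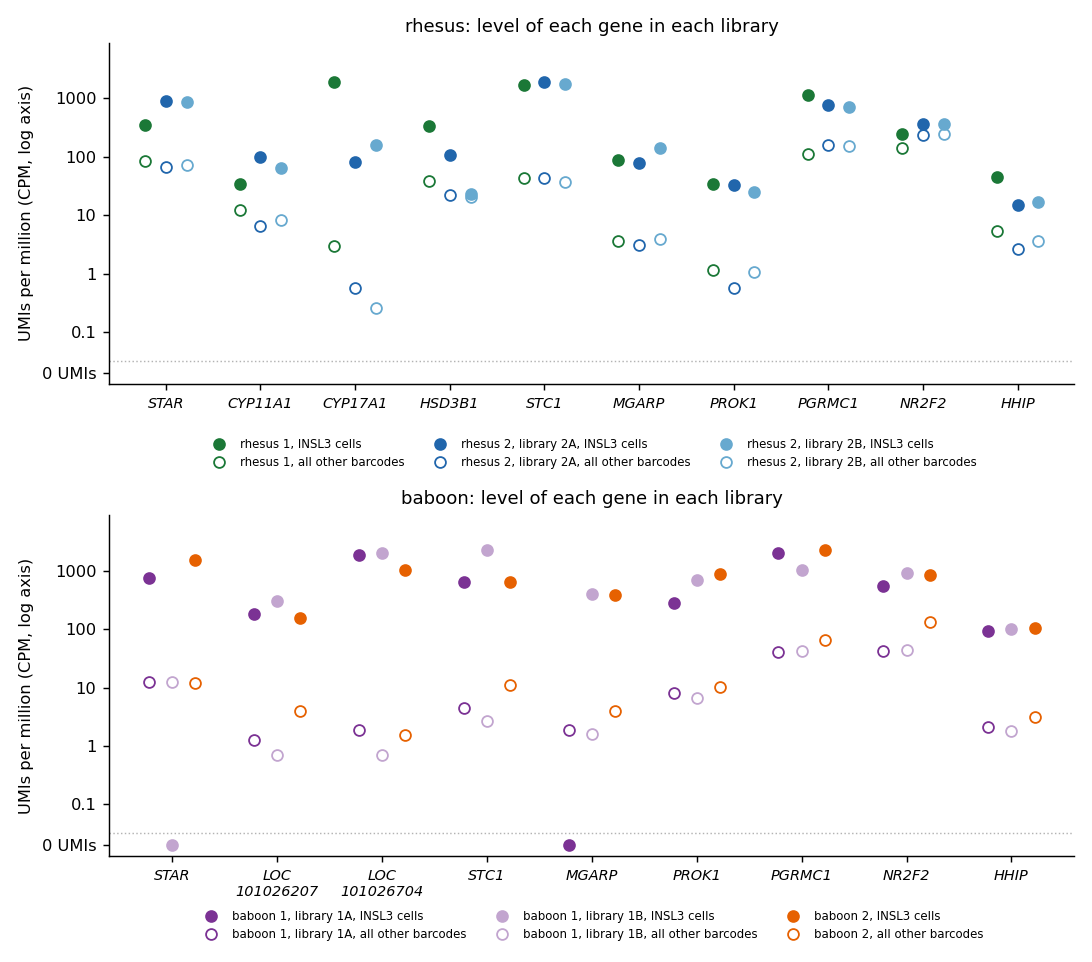
Level in CPM (log axis, 0 UMIs drawn at the bottom) of marker genes in each library, in INSL3 cells (filled) and all other barcodes (open), for the rhesus monkeys above and the baboons below. STC1 lies between 1719 and 1881 CPM in the 3 rhesus libraries, while CYP17A1 lies at 1901 CPM in rhesus 1 and at 82.3 and 162 CPM in rhesus 2.

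Of the 12 genes on the steroidogenic list, 10 were listed in the rhesus files and 8 had enough UMIs to be tested. With the block, 4 were higher (STAR, CYP11A1, CYP17A1 and HSD3B1) and 1 was lower, with a median log2 fold change of 1.33 beside -0.09 over all genes. The one lower was HSD17B3, the testicular enzyme that turns androstenedione into testosterone, at 3.04 and 2.94 CPM in rhesus 1 and 2 against 15.7 and 34.7 (edgeR adjusted p = 5.31e-04 with the block). Its level rested on 4 and 2 UMIs. HSD17B6, a hydroxysteroid dehydrogenase, was at 9.11 and 14.7 CPM against 17.6 and 19.0 and passed in no fit. None of these genes passed without the block.

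The steroid P450 enzymes need electrons from partner proteins, and 4 of 6 partners were higher with the block, with a median of 1.09. CYB5R3, a cytochrome b5 reductase, was at 565 and 470 CPM in rhesus 1 and 2 against 180 and 157 (2.08, edgeR adjusted p = 6.99e-11 with the block). POR, the reductase that serves CYP17A1, was at 123 and 80.8 CPM against 57.3 and 46.5 (1.42, edgeR adjusted p = 2.70e-06 with the block). The mitochondrial pair FDXR and FDX1, which serves CYP11A1, passed at log2 fold changes of 1.10 and 0.78. CYB5A, which helps CYP17A1 to cut the side chain, was at 250 and 134 CPM against 235 and 174, and its p with the block was 0.452.

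Of 26 genes of cholesterol supply tested, 4 were higher and 1 lower with the block (median 0.42). Among those higher, LIPA, the lysosomal acid lipase, was at 54.6 and 89.6 CPM against 31.2 and 35.5, and NPC1, which exports cholesterol from lysosomes, at 9.86 and 36.7 CPM against 6.54 and 13.7. NSDHL, an enzyme of cholesterol synthesis, was also higher, at 31.9 and 26.4 CPM against 19.4 and 20.5. TSPO, an outer mitochondrial membrane protein, was lower, at 184 and 112 CPM against 426 and 242 (-0.71, edgeR adjusted p = 0.0305 with the block). SQLE, an enzyme of cholesterol synthesis, was at 14.4 and 20.6 CPM against 19.4 and 15.8 and did not pass.

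No hormone or growth factor receptor was higher, and 4 of 14 tested were lower with the block (median -1.66). They were PDGFRB (20.5 and 25.0 CPM against 68.4 and 153), NTRK2 (26.6 and 10.3 against 120 and 131), EDNRA (7.59 and 14.7 against 33.2 and 109) and TGFBR2 (3.04 and 8.81 against 19.4 and 96.2), receptors for PDGF, BDNF, endothelin and TGF-β that stromal and perivascular cells carry. NR3C1, the glucocorticoid receptor, was at 41.7 and 54.4 CPM against 46.8 and 43.4 and did not pass. ESR1, an estrogen receptor, was at 11.4 and 14.7 CPM against 18.9 and 8.24, thus on different sides in the 2 animals, and did not pass. LHCGR and PDGFRA were looked up by symbol and were not analysed here in the rhesus monkeys.

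Among 13 Leydig and stromal transcription factors tested, 1 was higher and 5 were lower with the block (median -0.72). The one higher was NR2F2 (COUP-TFII), a factor of interstitial progenitors, at 250 and 363 CPM against 144 and 243 (1.15, edgeR adjusted p = 9.04e-05 with the block), although its level was 311 and 414 CPM in collagen-rich barcodes. TCF21 (44.0 and 20.6 CPM against 180 and 126), LHX9 (23.5 and 14.7 against 99.4 and 35.5), NR2F1 (6.07 and 10.3 against 25.9 and 43.4), NR0B1 (7.59 and 13.2 against 38.0 and 55.2) and CREM (19.7 and 25.0 against 82.8 and 61.1) were lower. TCF21 and LHX9 mark gonadal stroma and NR0B1 represses NR5A1 activity. NR5A1 itself had 5 UMIs in rhesus 1 and 0 in rhesus 2 and was not tested. MAF, a factor of interstitial cells, was at 19.7 and 4.41 CPM against 11.3 and 6.47 and did not pass. NR4A1, an inducible nuclear receptor, was at 148 and 73.4 CPM against 417 and 48.0, thus on different sides in the 2 animals.

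Desert hedgehog from Sertoli cells acts on interstitial cells, and 2 of 6 receiving genes tested were higher with the block. HHIP, a hedgehog target that binds the ligand, was at 44.8, 15.2 and 17.0 CPM in rhesus 1, 2A and 2B against 5.36, 2.65 and 3.70 (3.34 ± 0.63, edgeR adjusted p = 0.146, and 9.31e-09 with the block). CDON, a co-receptor, was at 11.4 and 2.94 CPM against 1.82 and 1.51, from 15 and 2 UMIs. PTCH1, the receptor, was at 4.55 and 7.34 CPM against 2.95 and 3.99 and did not pass. GLI1, a target and mediator, had 2 and 1 UMIs, and GLI2, another mediator, was at 9.11 and 14.7 CPM against 11.3 and 22.9 and did not pass.

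Of 16 Leydig secreted and surface proteins tested, 3 were higher and 8 lower with the block (median -0.89). APOE, a lipid carrier, was the most abundant, at 5903, 5451 and 6370 CPM in rhesus 1, 2A and 2B against 3217, 2526 and 2540 (1.51, edgeR adjusted p = 3.00e-05 with the block). VCAM1, an adhesion molecule, was at 58.4, 48.8 and 34.0 CPM against 21.1, 4.98 and 4.49. CCK, a peptide hormone, passed from 21 and 1 UMIs. The inhibin subunits INHA (293 and 58.8 CPM against 1067 and 621), INHBA and INHBB were lower, as were IGF1 (44.8 and 20.6 against 120 and 48.9), IGF2 (1716 and 2328 against 4453 and 7257), HPGD, PTGDS and CFD. DLK1, an imprinted surface protein of immature interstitial cells, was at 511 and 295 CPM against 350 and 473 and did not pass.

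Of 14 glutathione and peroxide enzymes, 7 were higher and 1 lower with the block (median 0.80). GSTA3, a glutathione transferase that can also isomerize steroids, was at 812, 841 and 845 CPM against 299, 232 and 232 (2.11, edgeR adjusted p = 1.27e-10 with the block). GSTM3, another transferase, was at 3191, 1805 and 1896 CPM against 760, 962 and 1054 (1.94, edgeR adjusted p = 4.07e-08 with the block). GPX3, PRDX3, PRDX5, SOD1 and SOD2 were also higher and GPX4 was lower. PGRMC1, a heme-binding protein that interacts with P450 enzymes, was at 1159, 777 and 706 CPM against 111, 158 and 153 (3.33 ± 0.40, edgeR adjusted p = 0.0780), and it was named after its values were seen. The blocked comparison put 3 more genes outside the lists among the 10 largest increases. They were HS3ST1, a heparan sulfate sulfotransferase (174 and 58.8 CPM against 2.66 and 10.8), SULF2, a heparan sulfatase (192 and 109 against 12.8 and 6.64), and TSPAN8, a tetraspanin (34.1 and 72.0 against 6.15 and 1.26).

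Genes of other cell types were lower. With the block, 11 of 13 genes of collagen-rich stroma, 9 of 11 Sertoli genes, 5 of 8 endothelial genes and 7 of 10 macrophage genes passed as lower, and none of them passed as higher. Examples were the stromal proteoglycan LUM, the Sertoli ligand DHH, the endothelial PECAM1 and VWF, and the macrophage receptor CSF1R. The other barcodes include cells of these types, so these calls are a description. The endothelial list held 29 and 20 UMIs in the INSL3 cells of rhesus 1 and 2, and the macrophage list 40 and 6. Against collagen-rich barcodes, 1 of 3 endothelial, 0 of 4 macrophage and 8 of 9 stromal genes tested were lower with the block. Of the pericyte and peritubular myoid genes, 3 of 8 were lower, among them RGS5 (0.759 and 2.94 CPM against 18.8 and 91.8), while ACTA2, smooth muscle actin, was at 203 and 17.6 CPM against 83.7 and 127. In the mitotic list 1 of 15 genes passed, TYMS, the thymidylate synthase of DNA synthesis, at 10.6 and 26.4 CPM against 5.02 and 11.7, and of 10 immediate-early and heat shock genes DNAJB1 passed as higher and JUN as lower. Ribosomal protein genes made up 335623 and 352687 CPM in INSL3 cells against 259564 and 238800 CPM in the others. The genes with the largest decreases with the block were all at 0 UMIs in the INSL3 cells of both animals. They were GIMAP4 (7.82 and 26.3 CPM in the other barcodes), the chemokine CXCL12 (15.6 and 9.29), TM4SF18 (10.3 in rhesus 1), NFATC4 (8.06 and 19.2) and the endothelial transcription factor SOX17 (4.33 and 22.2). With 0 UMIs in INSL3 cells, these genes entered the test only through the other barcodes, so their direction was set by that and they are a description. These other-type, stress and ribosomal levels moved together with the class, and their part in the results above was not tested.

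**Figure D3:**
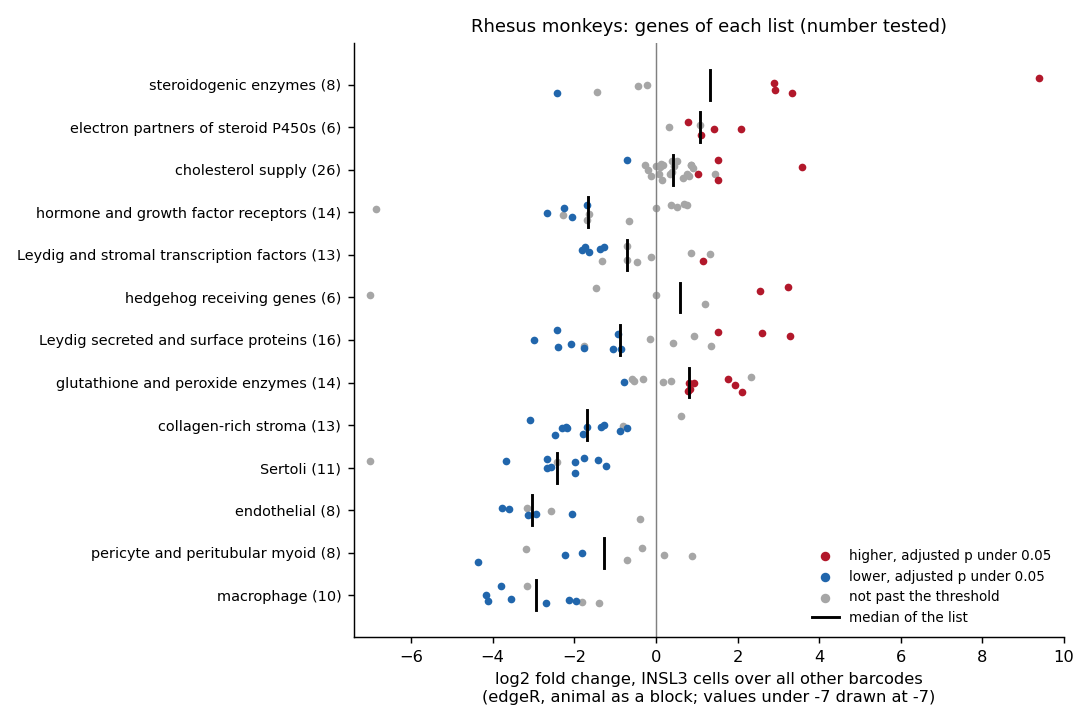
Each point is 1 gene of a list, placed by its log2 fold change between INSL3 cells and all other barcodes in the rhesus monkeys, from edgeR with the animal as a block (2 animals). Red points were higher and blue points lower at an adjusted p under 0.05, black bars are list medians, and the steroidogenic median is 1.33 while the Sertoli median is -2.43.

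Against collagen-rich barcodes, the nearest interstitial class (3663 barcodes in rhesus 1 and 2967 in rhesus 2), 3 of 9872 genes were higher (0.0304%) and 1 was lower (0.0101%). This comparison uses the same INSL3 cells as the first one. STC1 was at 1719 and 1824 CPM in rhesus 1 and 2 against 66.5 and 81.9 in collagen-rich barcodes (log2 fold change 4.97 ± 0.28, edgeR adjusted p = 0.0146). MGARP was at 88.0 and 112 CPM against 3.50 and 2.56 (5.39 ± 0.41, edgeR adjusted p = 0.0448) and PROK1 at 34.9 and 29.4 CPM against 0.420 and 0.183 (6.91 ± 0.58, edgeR adjusted p = 0.0448). At these levels PROK1 entered this test only through the INSL3 cells. MGARP, at 2.56 CPM in the collagen-rich barcodes of rhesus 2, also needed the INSL3 cells to enter it. C7, the complement component that marks the stroma, was the gene that was lower, at 94.1 and 95.5 CPM against 1131 and 1335 (-3.31 ± 0.28, edgeR adjusted p = 0.0448). Without library 2A, MGARP, PROK1 and C7 no longer passed (edgeR adjusted p = 0.0521 for each), nor did they with 2000 UMIs per barcode. PROK1 and C7 also no longer passed with at least 20 INSL3 UMIs (edgeR adjusted p = 0.0524 for both), and without library 2B, 23 genes were higher and 8 lower.

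With the animal as a block, 657 genes were higher than in collagen-rich barcodes (6.66%) and 555 lower (5.62%). STAR (358 and 883 CPM against 60.5 and 52.7), CYP11A1 (34.9 and 80.8 against 4.06 and 1.83), CYP17A1 (1901 and 123 against 2.66 and 0.366) and HSD3B1 (336 and 63.2 against 21.7 and 5.49) were the 4 of 8 steroidogenic genes that were higher, with none lower. The electron partners gave 4 of 6 higher, now with CYB5A (250 and 134 CPM against 135 and 38.0) in place of FDX1. GSTA3 was at 812 and 843 CPM against 124 and 63.6, and 5 of 13 glutathione and peroxide enzymes were higher. GJA1, the gap junction protein connexin 43, was at 78.9 and 57.3 CPM against 4.48 and 1.65 (4.86 ± 0.36, edgeR adjusted p = 5.89e-06 with the block). CYP17A1, CYP11A1 and GJA1 were so low in collagen-rich barcodes that they needed the INSL3 cells to enter this test. Of the 9 Sertoli genes tested here, 1 was lower and none higher, and AMH was at 682 and 135 CPM against 740 and 261. PTGDS, which was lower than in all other barcodes, was here higher (140 and 54.4 CPM against 124 and 17.7), and IGF2 was lower in both comparisons (9425 and 10867 CPM in collagen-rich barcodes).

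The levels within the INSL3 cells of the rhesus monkeys were uneven from cell to cell. In rhesus 1, 299 of 410 cells (72.9%) held a CYP17A1 UMI, against 18 of 68 (26.5%) in library 2A and 19 of 76 (25.0%) in library 2B, although the cells of rhesus 2 had more UMIs. When every cell was thinned to 1000 UMIs, the shares were 59.8% (exact 95% interval 54.8 to 64.5) in rhesus 1 and 6.94% (3.38 to 12.4) in rhesus 2. In barcodes with Sertoli genes, which should lack the enzyme, the shares were 0.308% and 0.0546% at the same depth. STAR went the other way, with 28.0% (23.8 to 32.7) of the thinned cells in rhesus 1 and 52.1% (43.6 to 60.5) in rhesus 2, against 8.20% and 8.48% of the barcodes with Sertoli genes. Thus CYP17A1 was in a larger share of cells in rhesus 1 and STAR in a larger share in rhesus 2, at equal depth. CYP11A1 was seen in 2.20% (1.01 to 4.13) of the thinned cells in rhesus 1 and 6.25% (2.90 to 11.5) in rhesus 2. The barcodes with Sertoli genes had 2.06% and 1.83%, so no difference from them was detectable at this depth in rhesus 1. There it was in 1.25% (1.04 to 1.49) of all other barcodes, inside the interval of the INSL3 cells. In collagen-rich barcodes of rhesus 1 it was in 0.382% (0.209 to 0.640), below that interval. HSD3B1 was seen in 17.6% of the thinned cells in rhesus 1 and 6.25% (2.90 to 11.5) in rhesus 2. The barcodes with Sertoli genes had 4.81% and 4.83%, and no difference from them was detectable in rhesus 2. There it was in 1.79% (1.56 to 2.05) of all other and 0.607% (0.360 to 0.957) of collagen-rich barcodes, both below the interval. STC1 was seen in 52.4% (47.5 to 57.4) and 62.5% (54.1 to 70.4) of the thinned cells, and MGARP in 7.56% and 11.8%.

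**Figure D4:**
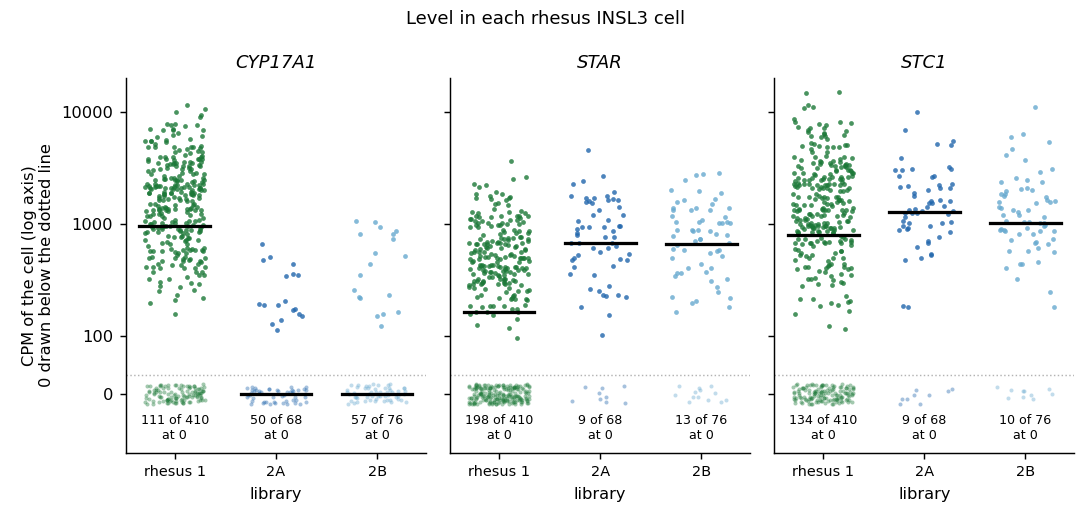
Level of CYP17A1, STAR and STC1 in each rhesus INSL3 cell in CPM of the cell (log axis), with cells at 0 drawn below the dotted line and black bars at the median of each library. The median CYP17A1 level is 957 CPM in rhesus 1 and 0 in libraries 2A and 2B, and the median STAR level is 162, 670 and 661 CPM.

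CYP17A1 also varied within an animal together with the other genes. The 205 cells of rhesus 1 with the higher CYP17A1 levels had STAR at 417 CPM, HSD3B1 at 408 CPM and STC1 at 2185 CPM, and the other 205 cells had them at 273, 232 and 1037 CPM. In rhesus 2, the 37 cells with a CYP17A1 UMI had STAR at 1109 CPM and STC1 at 2412 CPM, and the 107 cells without one had 774 and 1542 CPM. Cells with the higher CYP17A1 levels held more UMIs in both animals (medians of 3463 against 2172 and of 6090 against 4501), so depth moved with this split.

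The cells of each rhesus monkey were also ranked by their INSL3 share and cut into 3 parts of equal size. In rhesus 1, from the lowest to the highest part, CYP17A1 was at 1022, 2237 and 2317 CPM, STC1 at 981, 1949 and 2118 CPM, STAR at 240, 365 and 451 CPM and PGRMC1 at 741, 1046 and 1624 CPM. In rhesus 2, CYP17A1 was at 9.87, 91.3 and 239 CPM, STC1 at 1338, 1606 and 2390 CPM and STAR at 573, 944 and 1073 CPM. All of these rose from part to part in both animals. CYP11A1 had 16, 15 and 15 UMIs and HSD3B1 was at 374, 345 and 295 CPM over the parts of rhesus 1, so neither rose there. AMH was at 1153, 576 and 387 CPM in rhesus 1 and at 311, 63.9 and 57.9 CPM in rhesus 2, and the Sertoli list summed to 1593, 789 and 593 CPM and to 558, 192 and 220 CPM. INSL3 chose these cells and also ranked them, so the parts are no separate support for the label. Depth differed too, with median UMIs of 2181, 2628 and 3250 in rhesus 1 and of 4548, 4510 and 6088 in rhesus 2. The values are descriptions over cells of 1 animal each. The part played by depth, and by the Sertoli RNA in the lowest parts, was not tested.

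The INSL3 cells of the 2 rhesus monkeys could only be set side by side, since each is 1 animal. Of 2743 genes with at least 50 UMIs in either, 61 were more than 4-fold higher in rhesus 1 and 31 in rhesus 2. The genes named here were those with the largest difference after the difference of the other barcodes was taken off, a rule set after the values were seen. Higher in rhesus 1 were ACTA2 (203 CPM against 17.6), HS3ST1 (174 against 58.8), the membrane protein CAV2 (60.7 against 13.2), the calcium-binding S100A16 (136 against 38.2), the antigen presentation chaperone CD74 (45.5 against 2.94), the lysosomal protease CTSH (93.3 against 20.6), the lipid carrier APOD (86.5 against 22.0) and TMEM98 (178 against 39.7). The summed lists of other cell types were also higher in the INSL3 cells of rhesus 1 than in those of rhesus 2, at 427 against 104 CPM for pericyte and myoid genes, 30.4 against 8.81 for macrophage genes, 2599 against 1453 for stroma and 961 against 311 for Sertoli genes. Their part in these differences was not tested.

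Higher in rhesus 2 was CD36, a receptor for fatty acids and lipoproteins, at 844 and 714 CPM in libraries 2A and 2B and at 3.04 CPM in rhesus 1. The other barcodes had it at 76.4 CPM in rhesus 2 and 11.9 CPM in rhesus 1. SGK1, a kinase induced by steroids and stress, was at 304 CPM against 7.59, and PGF, placental growth factor, at 118 CPM against 6.07. CHODL (85.2 against 1.52), DOCK8 (109 against 3.79), IFI30 (74.9 against 2.28), ADM (94.0 against 21.2) and GPRC5B (238 against 31.1) followed. Libraries 2A and 2B lay close to each other for these genes, as for SGK1 at 311 and 298 CPM. STC1, MGARP, PROK1 and APOE, by contrast, were within 1.5-fold between the 2 animals.

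**Figure D5:**
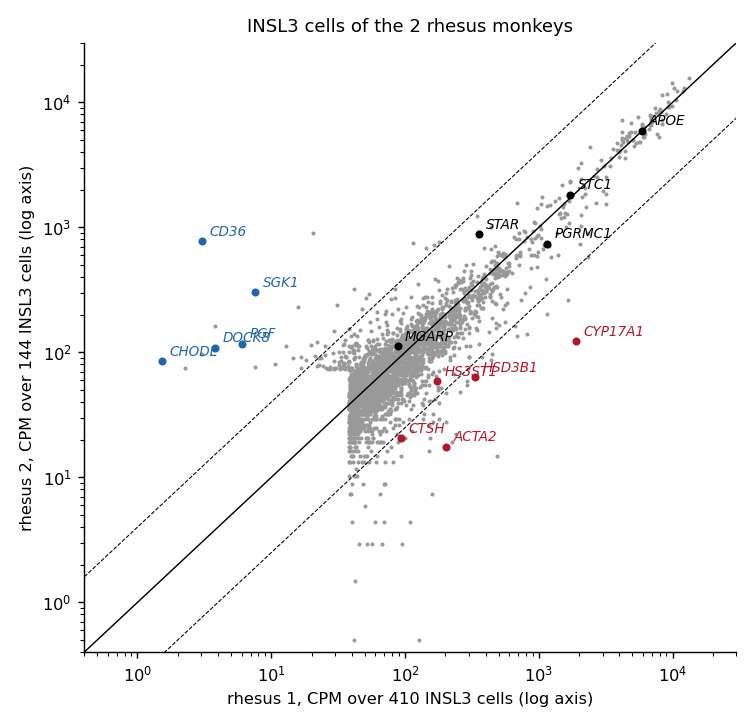
Each point is 1 gene with at least 50 UMIs in either animal, by its level in the INSL3 cells of rhesus 1 (x axis, 410 cells) and rhesus 2 (y axis, 144 cells), both in CPM on log axes (0 drawn at 0.5). The solid line marks equal levels and the dashed lines a 4-fold difference, and CYP17A1 lies at 1901 and 123 while CD36 lies at 3.04 and 777.

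In the baboons no test was made, because baboon 1 had only 7 INSL3 cells and fewer than 10 were taken as too few. Levels are given with exact 95% Poisson intervals, which cover counting error only. The INSL3 cells of baboon 1 and baboon 2 together held 20780 and 77538 UMIs without INSL3, so that 1 UMI was worth 48.1 and 12.9 CPM. STAR was at 385 CPM (166 to 759, 8 UMIs) in baboon 1 and at 1548 CPM (1283 to 1851, 120 UMIs) in baboon 2, against 12.5 and 11.9 CPM in the other barcodes. All 8 UMIs of baboon 1 came from library 1A, and the 3 cells of library 1B had none. LHCGR, the luteinizing hormone receptor, had 15 UMIs in baboon 2 (193 CPM, 108 to 319, in 8 of 19 cells) and 0 in baboon 1, where the interval reaches 178 CPM, against 0.391 and 0.0565 CPM in the other barcodes.

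STC1, PROK1 and MGARP, the genes called in both rhesus comparisons, were also far above the other baboon barcodes. STC1 stood at 1396 CPM (935 to 2004) in baboon 1 and 645 CPM (479 to 850) in baboon 2, against 3.84 and 11.0 CPM. PROK1 was at 481 CPM (231 to 885) and 864 CPM (670 to 1097), against 7.63 and 10.3 CPM. MGARP was at 192 CPM (52.4 to 493, all 4 UMIs from library 1B) and 387 CPM (261 to 552), against 1.78 and 4.02 CPM. Every lower bound lay above the comparison barcodes. RHBG, PC and RPRM, by contrast, had 0 UMIs in baboon 1 and 2, 1 and 1 UMIs in baboon 2, and their difference could not be read at this depth.

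Of 756 genes with at least 3 UMIs in the INSL3 cells of both baboons, 15 were over 4 on the log2 scale (with 1 CPM added) above the other barcodes in both, and 5 of the 15 had only a LOC number. Since 3 UMIs were already 144 CPM in baboon 1, a gene that was low in the INSL3 cells could not enter and a gene near 0 elsewhere had to pass there, so the 15 are a description. PGRMC1 was at 1540 CPM (1053 to 2174) and 2231 CPM (1911 to 2590) against 40.6 and 65.9. RGS16, a regulator of G protein signaling, was at 289 CPM (106 to 628) and 348 CPM (229 to 507) against 3.87 and 6.96. HS3ST1 was at 337 CPM (135 to 694) and 142 CPM (70.8 to 254) against 3.67 and 3.33. DLK1 was at 770 CPM (440 to 1250) and 1199 CPM (968 to 1469) against 32.3 and 66.2 in the others and 324 and 335 in collagen-rich barcodes. The secreted WFDC1 (337 and 245 CPM) and the coactivator VGLL3 (337 and 193 CPM) had the same pattern.

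CYP17A1, CYP11A1 and HSD3B1 were looked up by symbol and were not analysed here under these names in the baboons. Of the 15 genes, the one with the largest ratio in both animals was LOC101026704, picked after its values were seen. It was at 1925 CPM (1375 to 2621, 40 UMIs) in baboon 1 and 1019 CPM (807 to 1270, 79 UMIs) in baboon 2, against 1.44 and 1.54 CPM, and was seen in 7 of 7 and 15 of 19 cells. It lies at chr11:30599708-30607097 of Panubis1.0, between BORCS7 and WBP1L. In the rhesus genome the gene between those neighbors is CYP17A1 (chr9:103372364-103379292 of Mmul_10). LOC101026207, also picked after its values were seen, was at 241 CPM (78.1 to 562, 5 UMIs) and 155 CPM (80.0 to 270, 12 UMIs) against 1.05 and 4.04 CPM. It did not come next by ratio, since LOC116274499 had larger log2 ratios (6.92 and 6.70, against 6.88 and 4.95). LOC101026207 lies at chr7:114363757-114393673 of Panubis1.0 between SEMA7A and CCDC33, where the rhesus annotation has LOC708065, described as the cholesterol side-chain cleavage enzyme. These are facts of position, and neither gene is given a name here.

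The remaining lists in the baboons rested on few UMIs. HSD3B2 had 0 and 9 UMIs (116 CPM in baboon 2, 53.1 to 220) against 58.4 and 77.3 CPM, and HSD17B3 had 1 and 0. FDXR was at 289 and 322 CPM against 314 and 262. NR2F2 was at 722 CPM (404 to 1191) and 851 CPM (658 to 1083) against 42.7 and 130 in the others and 560 and 749 in collagen-rich barcodes. NR5A1 was at 96.2 CPM (11.7 to 348, 2 UMIs) and 77.4 CPM (28.4 to 168, 6 UMIs) against 41.2 and 54.8, so its intervals held the level of the other barcodes. NR4A1 (232 CPM in baboon 2, 138 to 367, against 412) and CEBPB (271 CPM, 168 to 414, against 91.6), both inducible factors, had 3 UMIs each in baboon 1. HHIP had 2 and 8 UMIs (103 CPM in baboon 2, 44.5 to 203), against 8.51 and 7.03 CPM in collagen-rich barcodes. APOE and APOC1, lipid carriers, were at 5534 and 5726 CPM and at 3561 and 4940 CPM, against 2598 and 586 and against 333 and 230. AMH was at 337 CPM (135 to 694) and 271 CPM (168 to 414) against 6004 and 6463 CPM, and C7 had 0 UMIs in baboon 1 and 103 CPM in baboon 2 (44.5 to 203) against 81.1 and 435 CPM in the others and 1338 and 2833 CPM in collagen-rich barcodes.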

How the data were processed

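Transcripts of testis cells were counted in 6 libraries from 4 animals, with 16875294 to 49803025 UMIs each. The deposited values were raw UMI counts of every barcode, which the authors made with Cell Ranger 3.1.0 on Panubis1.0 (baboon) and Mmul_10 (rhesus). Seurat 3.2.3, named in the submitters' processing notes, was used by them after that step. Its cell annotation was not used here. Free RNA was not subtracted and mitochondrial genes were not listed, so the mitochondrial share could not be used as a measure of quality.

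The INSL3 cells, the gene lists and the comparisons were chosen with earlier results of these data known. Collagen-rich barcodes had at least 10 UMIs and 0.5% of DCN, COL1A1, COL1A2 and COL3A1, and barcodes with Sertoli genes at least 2 UMIs of SOX9, DHH and AMH. UMIs were summed per animal and class, INSL3 was left out of totals and tests, and genes were tested with edgeR 4.0.16 (TMM scaling, its filter on low counts, quasi-likelihood test, Benjamini-Hochberg adjustment over all genes tested, threshold 0.05) in R 4.3.3. The test needed 10 INSL3 cells per animal. The animal was not in the model at first, as the study used no such term. Since both classes came from the same animal, a model with the animal as a block was also fitted. Deviations of the classes of an animal from the class means were correlated (0.401 against all other barcodes, 0.498 against collagen-rich barcodes). With 2 animals per species, p-values reach no further than these animals. The fit of edgeR also takes the spread of a gene in part from all genes tested. With the block, 1 residual degree of freedom was left, so those p-values rest largely on this shared estimate. They are thus no measure of the spread of a single gene between animals. The SE beside a log2 fold change was calculated back from the F statistic of the same test. It is no direct spread over the 2 animals either. DESeq2 1.42.0 was an alternative. On simulated data, the test found 32.5% of 200 genes changed by 2 on the log2 scale (11944 genes, 3 false calls) in the first comparison and 31.5% in the second (9605 genes, 1 false call).

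Named were STAR, CYP11A1 and CYP17A1, list genes that passed a test or, in the enzyme, partner, receptor, transcription factor and hedgehog lists, had 20 UMIs, and the 10 largest increases and 5 largest decreases among genes past the threshold. Because few passed without the block, the blocked calls were named in the same way, which was decided after the values were seen. Some genes of the lists enter the counts and medians but are not reported here by name. Ratios without a test had 1 CPM added. No doublet caller was run, and INSL3 cells with fewer than 2 UMIs of other cell types were an alternative. Promoter windows were read from RefSeq sequences of Mmul_10. Intervals cover counting error only.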

Additional observations from a re-analysis of the deposited data

Results flagged for a closer look

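The direction of 2 secreted or enzyme genes against all other barcodes was opposite in the species. IGF2, an insulin-like growth factor, had log2 ratios of 2.48 in baboon 1 and 1.09 in baboon 2, and of -1.37 in rhesus 1 and -1.64 in rhesus 2. HPGD, which breaks down prostaglandins, had log2 ratios of 2.89 and 3.19 in the baboons and of -2.36 and -3.13 in the rhesus monkeys. The difference between the species was not tested, since baboon 1 had too few INSL3 cells. The makeup of the other barcodes differs between the animals: collagen-rich barcodes were 731, 1895, 3663 and 2967 of them in baboon 1, baboon 2, rhesus 1 and rhesus 2, and its part in the ratios was not tested. Against collagen-rich barcodes alone, IGF2 was lower in all 4 animals (log2 ratios of -1.53 and -1.59 in the baboons), whereas HPGD still differed in direction, at 1.74 and 1.98 in the baboons.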

How the results depend on the processing

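Baboon 1, with 7 INSL3 cells, stayed under the chosen minimum of 10 cells for a test, so the baboons were not tested. With the animal as a replicate block, 696 genes were higher and 691 lower than all other barcodes, and 657 and 555 against collagen-rich barcodes, in place of 6 and 0 and of 3 and 1. Against all other barcodes, higher and lower genes numbered 11 and 1 with 2000 UMIs per barcode, 37 and 12 with 1000 UMIs drawn from each, 14 and 2 in INSL3 cells with fewer than 2 UMIs of other cell types, 183 and 100 with DESeq2, 297 and 391 with no filter on low counts, and 325 and 208 with libraries as samples. Leaving out a library of rhesus 2 gave 7 to 13 higher and 0 lower. Against collagen-rich barcodes they numbered 1 and 0, 23 and 7, 11 and 5, 170 and 144, 385 and 427, and 453 and 334 in the same order, 5 higher with comparison barcodes without an INSL3 UMI, 0 lower with 20 INSL3 UMIs, and 1 to 23 higher and 0 to 8 lower without a library. The cause of these differences was not tested.

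The baboon share of 0.120% became 0.0738% with INSL3 at 1% or more. The rhesus share of 2.45% became 2.18% with that limit, 2.20% with 20 INSL3 UMIs, 5.51% with 2000 UMIs and 2.03% with 500 UMIs. Of 840 values of named genes under the alternatives that gave a fit, 830 kept their direction and 10, of 5 results that passed no test, did not. Against all other barcodes, the log2 fold change of HSD17B6 turned from -0.21 to 0.11 (2000 UMIs) and 0.32 (1000 UMIs drawn). That of GLI2 (-0.07) was 0.25 with 2000 UMIs and -0.63 to 0.29 without a library, and that of ESR1 (0.33) was -0.05 to 0.57 without a library. Against collagen-rich barcodes, HSD17B6 (-0.15) was at 0.50 with 1000 UMIs drawn. NR3C1 (-0.06) was at 0.06 with 1000 UMIs drawn, at 0.20 with few UMIs of other types, at 0.11 with libraries as samples, and at -0.38 to 0.13 without a library.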
